A study of Mus musculus with 3 samples.

Results

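The comparison described here set the MBT2 library that carried the second hairpin against Asns (shAsns#2) beside the library that carried a scramble hairpin. Its members were the genes with at least 10 counts in either of these libraries, which left 13846 of the 57010 genes in the table. MBT2 is a mouse bladder cancer cell line, and the labels name no further treatment of either culture. Each was made by stable transfection with its hairpin plasmid, which the study's methods describe as pLKO.1 lentiviral transduction followed by puromycin selection, so that the controls carry a vector and the selection too. Another library, with shAsns#1, shared the same scramble control, and its values are set beside the others. Each condition had 1 library, so no replicate test was possible and every interval below covers counting error only. The labels name RPMI-1640 and TRIzol while the methods name DMEM and a column kit, and the labels' treatment text mentions shAsns#1 for all 3 samples. The shAsns#2 library is therefore known by its title and its treatment characteristic.

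Asns encodes asparagine synthetase, which makes asparagine from aspartate with glutamine as the nitrogen donor. Cells short of an amino acid activate the kinase GCN2 and the transcription factor ATF4, which raises amino acid transporters, tRNA synthetases and Asns itself. Type I interferon signals from its receptor to the nucleus, where transcription factors bind the interferon-stimulated response element (ISRE) in the promoters of antiviral genes. RIG-I, encoded by Rigi (listed as Ddx58 in the table), is a cytoplasmic sensor of viral RNA and is itself interferon-inducible.

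Sequences upstream of the start site are shown for 3 antiviral genes and 1 ATF4 target that stood higher with shAsns#2, because the interferon groups had the highest list medians and the ATF4 response is the textbook response to amino acid shortage. They are RefSeq sequences on GRCm38.p6, each ends at the base before the start site, and they are written on the strand of the gene. Capitals mark matches to the ISRE core (GAAA, any 2 bases and GAAA again) for the first 3 genes and to the ATF4 core TGATGNAA for Chac1, with both strands searched. The genes and the motifs were picked after their values had been seen.
Ddx60: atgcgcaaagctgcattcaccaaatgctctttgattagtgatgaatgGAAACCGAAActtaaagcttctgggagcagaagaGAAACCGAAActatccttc
Rsad2: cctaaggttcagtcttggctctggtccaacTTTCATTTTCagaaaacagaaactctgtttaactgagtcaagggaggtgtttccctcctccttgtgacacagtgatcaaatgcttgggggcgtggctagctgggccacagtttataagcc
Ifi44: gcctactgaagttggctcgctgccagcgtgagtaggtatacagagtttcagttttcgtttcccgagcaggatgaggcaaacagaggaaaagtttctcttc
Chac1: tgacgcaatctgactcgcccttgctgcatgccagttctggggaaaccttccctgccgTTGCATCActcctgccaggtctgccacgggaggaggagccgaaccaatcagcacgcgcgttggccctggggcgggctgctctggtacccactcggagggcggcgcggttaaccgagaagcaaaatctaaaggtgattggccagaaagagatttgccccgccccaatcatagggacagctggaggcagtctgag

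The Ddx60 stretch (chr8:61927987-61928086, plus strand) holds 2 matches, and the Rsad2 stretch (chr12:26456453-26456602, minus strand) holds 1. The Ifi44 stretch (chr3:151749911-151750010, minus strand) holds 0, which says only that these letters are not in that window. GENCODE M21 places the start of Ifi44 at base 151749960, inside this stretch, so by those gene models part of it is not upstream. The Chac1 stretch (chr2:119350992-119351241, plus strand) holds 1. Over windows from 250 bases before to 50 bases after the start, the ISRE core occurred in 3.99% of 27025 promoters. It occurred in 22 of the 39 interferon effector genes that had a promoter entry and in 9 of 10 interferon-inducible GTPases. The ATF4 core occurred in 4.51% of all promoters and in 8 of 27 ATF4 targets. A match is a description of the letters and was not tested as a binding site.

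After rounding, the libraries held 19326826 counts for scramble, 22915511 for shAsns#2 and 19167852 for shAsns#1. Levels are given in CPM, the counts per 1000000 of a TMM-scaled library size, and a log2 ratio is that of shAsns#2 to scramble with a 95% counting interval. Where 3 levels are given without names, they are those of scramble, shAsns#2 and shAsns#1, in that order. The median log2 ratio of the kept genes was 0.00 and the middle 50% lay between -0.28 and 0.28. With total counts as the only scaling the median was 0.11. Both deposited counts were whole numbers for 59.1% of the kept genes. A gene said to have fractional counts had a deposited value that was not whole in at least 1 of these libraries, and how such values arose was not tested. Of 25 urothelial markers, 6 were kept, 2 of them were called higher by the rule given below (Krt8 and Gata3) and 0 lower, and 7 were at 0 in scramble and shAsns#2, among them the defining markers Krt5, Krt20, Upk1b and Upk3a. Their summed level of 586 CPM in scramble and 390 with shAsns#2 came mostly from Cd44, which many cell types express, at 569 and 370 CPM. Of 17 fibroblast markers, 12 were kept, 3 were called higher and 1 lower (S100a4), Thy1 was at 0, and the list summed to 2144 and 1497 CPM. S100a4 alone made up 1161 and 387 CPM of this sum. Other abundant members went both ways, with Col3a1 at 390 and 584 CPM and Pdpn at 302 and 226 CPM. Of 25 leukocyte markers, 4 were kept, 0 were called and 15 were at 0. They summed to 85.8 and 77.1 CPM, mostly Cd68 and Cd14, while the defining markers Cd3e, C1qa, Csf1r, Tyrobp and Ptprc together had 0.482 and 0.293 CPM. In a bulk library, fewer cells of a type and less RNA per cell cannot be told apart.

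Asns was lower with the hairpin against it. Its level was 84.2 CPM in scramble against 27.7 with shAsns#2, beside 33.5 with shAsns#1, from 1574, 663 and 636 counts. The log2 ratio was -1.60 (interval -1.74 to -1.47), and the log2 ratio of shAsns#2 to shAsns#1 was -0.27 (-0.43 to -0.11). The gene lies at chr6:7675169-7693254 on the minus strand in GENCODE M21.

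A gene was called 2-fold higher or lower when its log2 ratio was at least 1 in size and its interval excluded 0. By this rule 624 genes (4.51%) were higher and 437 (3.16%) lower with shAsns#2, 1061 (7.66%) in all, which makes 58.8% of the calls higher. Scaling by total counts gave 763 and 327, or 70.0% higher. With the wider fold of the study's methods (over 1.5 on the log2 scale) and the same interval rule, 394 genes (2.85%) were higher and 182 (1.31%) lower. These shares are the background for the gene groups below. Genes under 10 counts in 1 library were kept only through the other, where they had more counts. With at least 10 counts required in both, 343 genes were 2-fold higher and 291 lower. Intervals are narrow at this depth, and of all kept genes 3669 (26.5%) had one wholly above 0 and 4276 (30.9%) one wholly below 0, which is the background for each count of intervals.

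**Figure D1:**
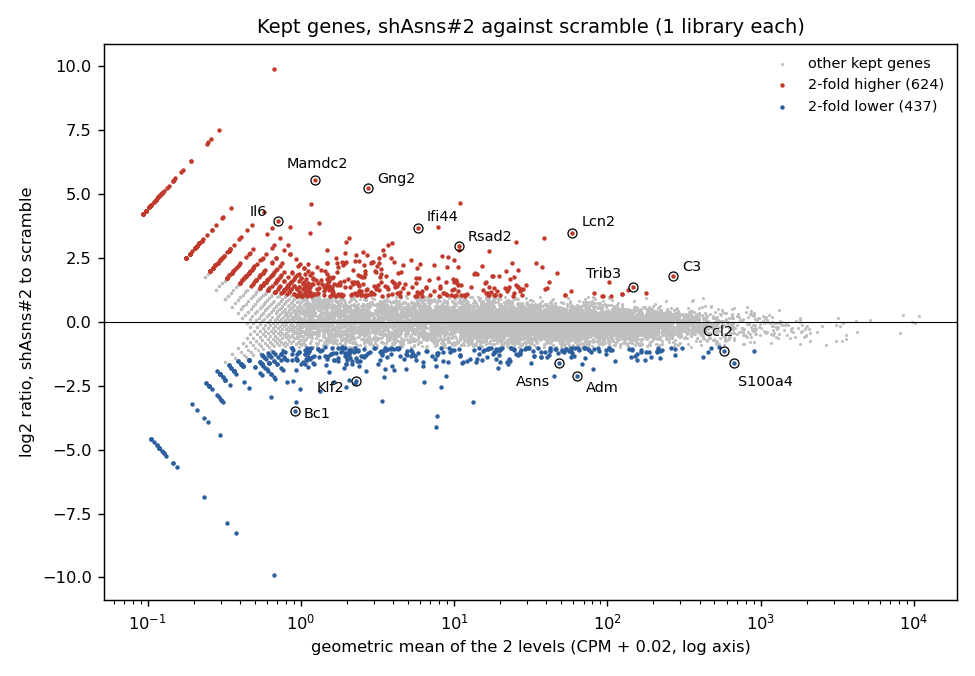
Each point is 1 of the 13846 kept genes, with the geometric mean of its level in scramble and shAsns#2 (CPM, log axis) against its log2 ratio. The 624 genes called 2-fold higher are red and the 437 called lower are blue, circles mark named genes, and the outermost diagonal streaks at the left are genes with 0 counts in 1 library.

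The interferon-inducible GTPases, which disrupt the vacuoles of intracellular pathogens, were the list with the highest median. Of 19 kept members, 18 were called 2-fold higher and 0 lower, with a median log2 ratio of 1.80 against 0.00 over all kept genes. Igtp was the member not called, at 0.66. Iigp1, an immunity-related GTPase, had 0.642 CPM in scramble against 5.85 with shAsns#2, beside 4.37 with shAsns#1, a log2 ratio of 3.14 (2.34 to 4.17). Among guanylate-binding proteins, Gbp5 stood at 3.37, 16.0 and 9.80 CPM in the same order, with a log2 ratio of 2.24 (1.86 to 2.66). The shAsns#2 library was also above shAsns#1 for Gbp5, by 0.71 (0.46 to 0.97), and for Irgm2 (fractional counts), by 0.54 (0.39 to 0.70). Gm4951 had 0 counts in scramble and 22 with shAsns#2, at least 5.73-fold higher against a floor of 3 counts in the scramble library, and setting it to that bound left the median at 1.80. Only 9 of the 19 had whole counts in both libraries.

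Interferon effector genes, which block steps of viral replication, were higher as a group. Of 53 kept members, 28 were called 2-fold higher and 0 lower. Their median log2 ratio was 1.29. The study names some of them for these cells, so the list is not independent of the samples. Ifi44 had the largest ratio, with 1.61 CPM in scramble against 20.6 with shAsns#2, beside 14.8 with shAsns#1, a log2 ratio of 3.66 (3.15 to 4.26). Oas2, an oligoadenylate synthetase that activates RNase L, stood at 1.28, 10.7 and 7.79 CPM in the same order and had a log2 ratio of 3.03 (2.45 to 3.72). Rsad2, which encodes viperin, stood at 3.80, 29.9 and 27.5 CPM and had a log2 ratio of 2.97 (2.62 to 3.35). The helicase gene Ddx60 had 3.37, 20.4 and 15.5 CPM and a log2 ratio of 2.59 (2.22 to 3.0). In all 4 of these genes both hairpin libraries were far above scramble, and only Rsad2 had an interval of shAsns#2 to shAsns#1 that held 0 (-0.05 to 0.28).

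Other members lay closer to scramble. The ubiquitin-like modifier gene Isg15 had 53 CPM in scramble against 90.8 with shAsns#2, beside 94.3 with shAsns#1, a log2 ratio of 0.77 (0.67 to 0.88). Oas3 (fractional counts) stood at 17.8, 48.3 and 61.3 CPM with a log2 ratio of 1.44 (1.26 to 1.62), and shAsns#2 lay below shAsns#1 by 0.34 on the log2 scale (interval of the difference -0.46 to -0.23). At the lower end the list reached a log2 ratio of -0.38. The intervals of 45 of the 53 members lay above 0 (26.5% of all kept genes) and those of 6 below 0 (30.9%).

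The upstream genes of the pathway differed less than its targets. All 21 type I and III interferon genes listed had 0 counts in scramble and in shAsns#2, where a floor of 3 counts is 0.161 and 0.125 CPM. Of 16 kept interferon signalling genes, 0 were called higher and 2 lower, with a median log2 ratio of 0.12. Irf9, which encodes an interferon regulatory factor, had 32.4 CPM in scramble against 58.6 with shAsns#2, beside 60.7 with shAsns#1, a log2 ratio of 0.86 (0.72 to 1.0), and its exons overlap those of Rnf31. Those called lower were Socs1, a feedback inhibitor of JAK kinases, at -1.43 (-2.09 to -0.83), and Ifngr2, a subunit of the interferon-gamma receptor, at -1.05 (-1.26 to -0.84). Among 23 kept genes of nucleic acid sensing, Irf7 was the 1 gene called higher, with 9.37, 27.2 and 24.1 CPM and a log2 ratio of 1.53 (1.29 to 1.79). Its exons overlap those of Phrf1, and whether the counting used strand is not stated. Exons of Cxcl10, Cp, Dusp1 and other genes named below also overlap those of another gene, which is not marked at each. Ddx58, which encodes RIG-I, stood at 58.6 CPM in scramble against 113 with shAsns#2, beside 102 with shAsns#1, a log2 ratio of 0.95 (0.84 to 1.05). Ifih1, which encodes the sensor MDA5, had 0.57 (0.44 to 0.70), and Ticam1, the adaptor of Toll-like receptor 3, had -0.66 (-0.87 to -0.46).

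Antigen presentation showed small differences. Of 24 kept genes of MHC class I presentation, 1 was called higher and 0 lower. The list's median log2 ratio was 0.15, or -0.09 over the members with whole counts in both libraries. The gene called was H2-Q6 (fractional counts) at 1.14 (0.76 to 1.55). Tap1, the peptide transporter of the endoplasmic reticulum (fractional counts), had 0.62 (0.51 to 0.74), and Nlrc5, the transactivator of class I genes, had 0.46 (0.32 to 0.60). Of 13 kept ligands for T and NK cells, 2 were called higher and 0 lower. The death receptor gene Fas stood at 5.78 CPM in scramble against 17.3 with shAsns#2, beside 11.4 with shAsns#1, a log2 ratio of 1.58 (1.27 to 1.90). Cd274, which encodes PD-L1, had 0.86 (0.61 to 1.12) with fractional counts.

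**Figure D2:**
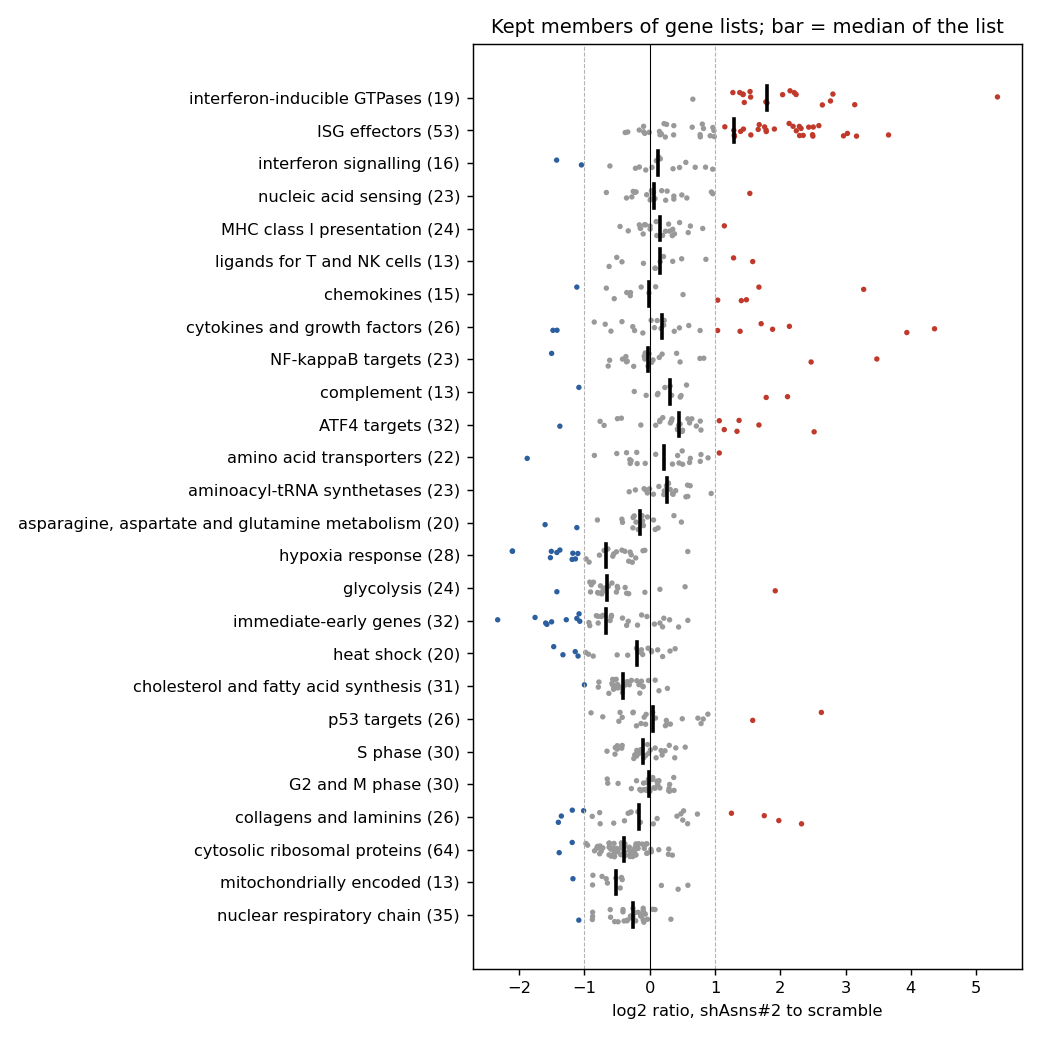
Each point is a kept member of a gene list, placed at its log2 ratio of shAsns#2 to scramble, with the number of kept members in brackets and a black bar at the list's median. Points at 1 or above are red and at -1 or below blue, and the bars of the interferon-inducible GTPases (1.80) and the interferon effectors (1.29, named ISG effectors) stand apart from those of the other lists, while hypoxia, glycolysis and immediate-early genes lie lowest.

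Chemokine genes went in both directions. Of 15 kept, 5 were called higher and 1 lower, with a median log2 ratio of -0.01. The genes called higher were Ccl20, Cxcl11, Cx3cl1, Cxcl9 and Cxcl10. Ccl20, a ligand of CCR6, had 0.642 CPM in scramble against 6.44 with shAsns#2, beside 4.90 with shAsns#1, a log2 ratio of 3.28 (2.48 to 4.31). The CXCR3 ligands Cxcl9, Cxcl10 and Cxcl11 had log2 ratios of 1.40 (1.07 to 1.76), 1.04 (0.91 to 1.17) and 1.67 (0.99 to 2.46). Ccl2, the monocyte attractant, had 855 CPM in scramble against 394 with shAsns#2, beside 755 with shAsns#1, a log2 ratio of -1.12 (-1.15 to -1.08). The shAsns#2 library was below shAsns#1 for Ccl2, with a log2 ratio between them of -0.94 (-0.98 to -0.90). Ccl5, another leukocyte attractant, stood at 34.1, 48.6 and 70.2 CPM, so that its log2 ratio of 0.51 (0.37 to 0.65) with shAsns#2 did not reach 2-fold.

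Among 26 kept cytokines and growth factors, 7 were called higher and 2 lower. Il6 had 3 counts in scramble against 67 with shAsns#2, beside 49 with shAsns#1, a ratio of 17.4 and a log2 ratio of 3.94 (2.52 to 6.44). Tnfsf15, a ligand of the TNF family, had 0.589, 2.67 and 1.63 CPM and a log2 ratio of 2.14 (1.25 to 3.26). Csf3, the neutrophil growth factor, was lower at -1.48 (-2.28 to -0.77). Of 23 kept NF-kappaB targets, 2 were called higher and 1 lower. Lcn2, which encodes the iron-siderophore binding protein lipocalin 2, had 17.7 CPM in scramble against 198 with shAsns#2, beside 120 with shAsns#1, a log2 ratio of 3.48 (3.32 to 3.65). Ier3 was lower at -1.50 (-1.58 to -1.43), and Nfkbia, the inhibitor that NF-kappaB itself induces, had -0.64 (-0.71 to -0.56).

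C3, the central component of complement, stood at 145 CPM in scramble against 500 with shAsns#2, beside 266 with shAsns#1. Its log2 ratio was 1.78 (1.72 to 1.85), and shAsns#2 exceeded shAsns#1 by 0.91 (0.86 to 0.96). The complement list had 13 kept members, of which 2 were called higher and 1 lower. Cp, which encodes the ferroxidase ceruloplasmin, had 13.0, 52.7 and 33.5 CPM and a log2 ratio of 2.02 (1.82 to 2.23). Tfrc, the transferrin receptor, was lower, with 242 CPM in scramble against 101 with shAsns#2, beside 116 with shAsns#1 and a log2 ratio of -1.26 (-1.33 to -1.19).

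**Figure D3:**
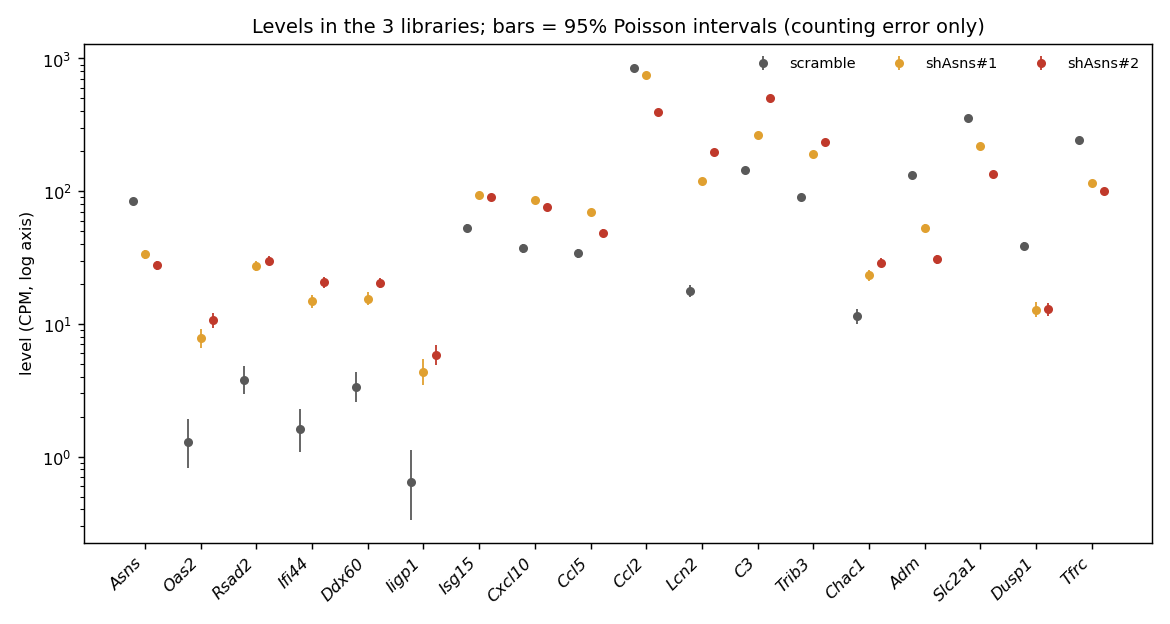
Levels of 18 genes (CPM, log axis) in scramble (grey), shAsns#1 (orange) and shAsns#2 (red), with 95% Poisson intervals that cover counting error only. Both hairpin libraries lie on the same side of scramble for each gene shown, and Ccl2 is 755 CPM with shAsns#1 but 394 CPM with shAsns#2. The genes were picked with their values known and both hairpins share the scramble library, so the common side is no result. Genes with the hairpins on opposite sides of scramble, such as Bc1 and Insig1, are not drawn.

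Genes of the amino acid response were modestly higher. Of 32 kept ATF4 targets other than Asns, 6 were called higher and 1 lower, the median log2 ratio was 0.45, and 25 intervals lay above 0, where 26.5% of all kept genes had theirs. Trib3, a pseudokinase that restrains ATF4, had 90.9 CPM in scramble against 235 with shAsns#2, beside 192 with shAsns#1, a log2 ratio of 1.37 (1.29 to 1.45). Chac1, which degrades glutathione, stood at 11.4, 28.8 and 23.3 CPM and had a log2 ratio of 1.34 (1.12 to 1.57). Ppp1r15a, which directs dephosphorylation of eIF2alpha, had 1.14 (1.04 to 1.25), and the cystine transporter gene Slc7a11 (fractional counts) had 1.07 (0.89 to 1.25). Ddit4, an inhibitor of mTORC1 that is also a hypoxia target, was the gene called lower, at -1.38 (-1.45 to -1.30). For Trib3, Chac1 and Ppp1r15a the shAsns#2 level lay above that with shAsns#1, by 0.29 (0.23 to 0.35), 0.31 (0.13 to 0.48) and 0.59 (0.50 to 0.68). Amino acid transporters went both ways. Of 22 kept, 1 was called higher (Slc7a11) and 1 lower (Slc38a4, at -1.88), with a median of 0.22. Intervals lay above 0 for 9 of the transporters and below 0 for 7.

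Of 23 genes for aminoacyl-tRNA synthetases and their scaffold proteins (Aimp1, Aimp2 and Eef1e1) 0 were called in either direction, 16 intervals lay above 0 beside the background of 26.5%, and the median log2 ratio was 0.26. Nars, which charges tRNA with asparagine, had 665 CPM in scramble against 995 with shAsns#2, beside 844 with shAsns#1, a log2 ratio of 0.58 (0.55 to 0.61). Wars, which charges tryptophan and is interferon-inducible, had the largest ratio at 0.94 (0.87 to 1.01). In the metabolism of asparagine, aspartate and glutamine, 20 genes were kept, 0 were called higher and 2 lower. Besides Asns this was Glul, glutamine synthetase (fractional counts), with 129, 59.6 and 81.3 CPM and a log2 ratio of -1.12 (-1.21 to -1.02). Of 18 kept serine and one-carbon genes, 0 were called in either direction, and the median was 0.17. Intervals lay above 0 for 9 of them and below 0 for 4 (26.5% and 30.9% of all kept genes). Mtr, methionine synthase, had 0.77 (0.64 to 0.90), and Mat2a (fractional counts), with the largest ratio in size, had -0.81 (-0.95 to -0.67).

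Genes induced by hypoxia were lower. Of 28 kept, 0 were called higher and 10 lower, 25 intervals lay below 0 against 30.9% of all kept genes, and the median log2 ratio was -0.67. Adm, which encodes the vasodilator adrenomedullin, had 132 CPM in scramble against 30.6 with shAsns#2, beside 52.9 with shAsns#1, a log2 ratio of -2.10 (-2.22 to -1.98). Ankrd37 (fractional counts) had -2.11 (-2.45 to -1.79), and the lipid droplet gene Hilpda had -1.52 (-1.72 to -1.33). Slc2a1, the glucose transporter GLUT1, stood at 358, 134 and 220 CPM with a log2 ratio of -1.42 (-1.48 to -1.36). For Adm and Slc2a1 the shAsns#2 library was below shAsns#1, with log2 ratios between them of -0.79 (-0.93 to -0.65) and -0.72 (-0.78 to -0.65).

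Most glycolytic genes lay below 0 without reaching 2-fold. Of 24 kept, 20 had intervals below 0 (30.9% of all kept genes), with 1 gene called higher and 1 lower and a median log2 ratio of -0.66. The lactate exporters Slc16a1 and Slc16a3 (the latter with fractional counts) had -0.91 (-0.97 to -0.84) and -0.89 (-0.95 to -0.84). Pgk1, phosphoglycerate kinase, stood at 2674 CPM in scramble against 2060 with shAsns#2, beside 2720 with shAsns#1, a log2 ratio of -0.38 (-0.39 to -0.36). Its shAsns#1 level was close to scramble, and the log2 ratio of shAsns#2 to shAsns#1 was -0.40 (-0.42 to -0.38). Eno2, the neuronal enolase, was the gene called higher, at 1.92 (0.47 to 4.04) from 4 and 21 counts. Of 32 kept immediate-early genes, which growth factors switch on within minutes, 0 were called higher and 9 lower, with a median of -0.66.

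Within the immediate-early genes, Dusp1, a phosphatase of MAP kinases, had 38.5 CPM in scramble against 12.9 with shAsns#2, beside 12.8 with shAsns#1, a log2 ratio of -1.58 (-1.77 to -1.38). Klf2, a zinc finger transcription factor, had 5.14, 1.00 and 0.579 CPM and a log2 ratio of -2.33 (-3.07 to -1.70). Ccn1, a secreted matrix protein, stood at 432, 178 and 275 CPM with a log2 ratio of -1.28 (-1.33 to -1.23). Atf3 was among the members with a ratio above 0, at 0.58. Heat shock chaperones had 4 of 20 kept genes called lower and 0 higher. Among them Hsph1 had -1.33 (-1.40 to -1.26) and Hspa8 (fractional counts) had -1.14 (-1.17 to -1.11).

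**Figure D4:**
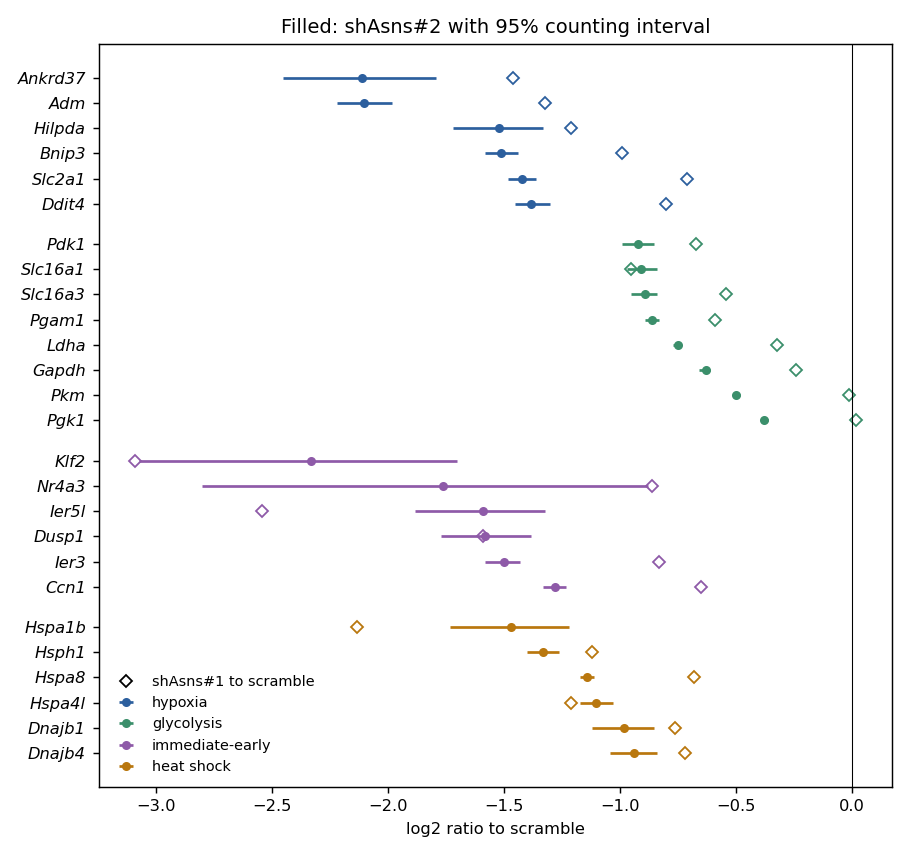
Filled points are log2 ratios of shAsns#2 to scramble with 95% counting intervals for members of 4 groups, and open diamonds are the log2 ratios of shAsns#1 to the same scramble library. The members drawn were picked among those below 0, from -0.38 for Pgk1 to -2.33 for Klf2, so their common sign is no result. Members of these lists above 0, such as Eno2 and Atf3, are not drawn.

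Genes of the S, G2 and M phases lay close to scramble as lists. Of 30 kept S phase and 30 kept G2 and M phase genes, 0 were called in either direction, with medians of -0.11 and -0.01. Mki67, a marker of cycling cells, had 502 CPM in scramble against 648 with shAsns#2, beside 682 with shAsns#1, a log2 ratio of 0.37 (0.33 to 0.40). Of 17 kept G1 regulators, 0 were called higher and 1 lower, 10 intervals lay below 0 and 4 above, and the median was -0.23. The gene called was Cdkn2a, which encodes the inhibitors p16 and p19Arf, at -1.05 (-1.19 to -0.92), and the GO term for inhibitors of cyclin-dependent kinases had a median of -0.53 over 12 genes. Of 26 kept p53 targets, 2 were called higher (Eda2r and Fas) and 0 lower, while Cdkn1a, the inhibitor p21 (fractional counts), had -0.90 (-0.98 to -0.82).

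Cholesterol and fatty acid synthesis had 26 of 31 intervals below 0, against 30.9% of all kept genes, and a median of -0.42. In this list Insig1, which holds back SREBP processing, stood at 45.2, 29.3 and 56.3 CPM. Insig1 was below scramble with shAsns#2, at a log2 ratio of -0.63 (-0.77 to -0.48), and above it with shAsns#1, at 0.32.

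Matrix and adhesion genes were called in both directions. Of 26 kept collagens, laminins and related matrix genes 4 were called higher and 3 lower. Lamb1, a laminin chain, had 87.9, 209 and 211 CPM in scramble, shAsns#2 and shAsns#1 and a log2 ratio of 1.25 (1.17 to 1.33), whereas Col6a2 had 116, 43.8 and 26.4 CPM and -1.40 (-1.51 to -1.29). Thbs1, the matrix glycoprotein thrombospondin 1, stood at 3.75, 22.1 and 20.3 CPM with a log2 ratio of 2.55 (2.20 to 2.94). Mmp3, a matrix metalloproteinase, had 7.33, 27.2 and 19.9 CPM and 1.89 (1.62 to 2.17). S100a4, a calcium-binding protein of motile cells (fractional counts), had 1161, 387 and 516 CPM and -1.59 (-1.62 to -1.55), and Vim, the filament protein vimentin, had -0.91 (-0.93 to -0.89). Snai2, a transcription factor of epithelial-mesenchymal transition, was higher at 1.35 (1.16 to 1.56), and the epithelial keratin gene Krt8 had 1.84 (1.2 to 2.58). The keratin gene Krt18 had -0.08 (-0.66 to 0.51), and Fn1 (fractional counts) had 1.98 (1.76 to 2.20). Of 15 kept genes of epithelial-mesenchymal transition, 3 were called higher and 2 lower, with a median of -0.03. Of 11 kept genes of kinin and prostaglandin signalling, 1 was called higher (Ptgs1, at 1.01) and 3 lower, with a median of -0.30. Intervals lay above 0 for 3 of them and below 0 for 4. Among those called lower, the bradykinin receptor gene Bdkrb2 had 5.19, 0.961 and 0.527 CPM and -2.41 (-3.16 to -1.77). Ptges, prostaglandin E synthase, had -1.05 (-1.11 to -1.0).

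Short genes as a whole were lower with shAsns#2. The decile of kept genes with the shortest deposited lengths, 75 to 1005 bases, had a median log2 ratio of -0.24, against 0.06 in the longest decile, and 150 of its 1385 genes were called lower and 50 higher. With shAsns#1 the shortest decile had a median of -0.07. Several lists made of short genes were lower too. Cytosolic ribosomal proteins had 57 of 64 intervals below 0, where the background was 30.9%, and a median of -0.40, and 2 were called lower, among them Rpl13 at -1.39 (-1.43 to -1.34) with fractional counts. Subtracting the length trend, an alternative chosen after seeing the data, left a median of -0.23 for these genes. Nuclear genes of the respiratory chain had 29 of 35 intervals below 0, beside the same background, and a median of -0.26, which became -0.12 when the trend was subtracted. The 13 genes encoded in mitochondrial DNA had a median of -0.52, and their share of all counts was 2.24% in scramble against 1.66% with shAsns#2, beside 1.96% with shAsns#1. The part of gene length in these results was not tested.

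**Figure D5:**
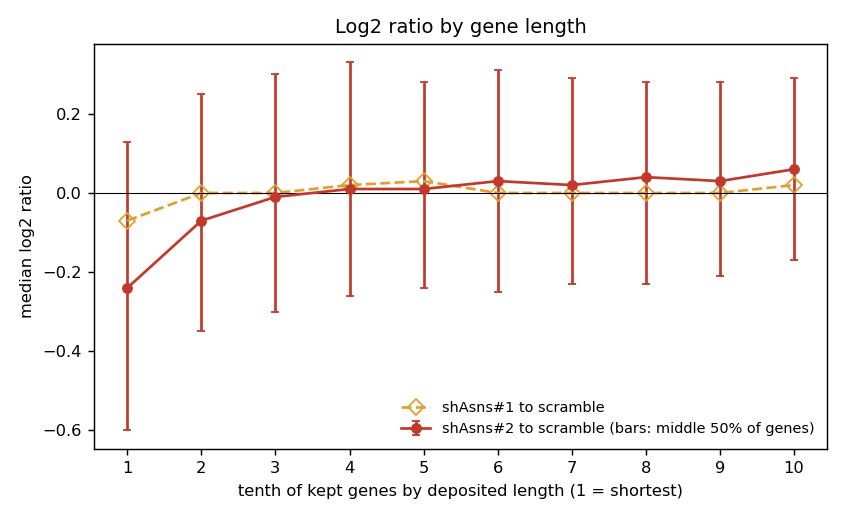
Median log2 ratio to scramble in deciles of the kept genes ordered by deposited gene length, for shAsns#2 (red, bars span the middle 50% of genes) and shAsns#1 (orange diamonds). The shortest decile lies at -0.24 with shAsns#2 and -0.07 with shAsns#1.

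GO terms were read from the deposited annotation, and 2438 terms with 10 to 300 kept genes were described. The highest medians belonged to symbiont-containing vacuole membrane (1.79, with 10 of 10 genes called higher), defense response to protozoan (1.43, 11 of 18) and cellular response to interferon-beta (0.66, 16 of 37). These terms share genes with each other and with the GTPase list, Iigp1 among them, so they are not separate results. Response to bacterium, a broader term, had 25 of 84 genes called higher and 2 lower, with a median of 0.54. Acute-phase response had 3 of 11 genes called higher, and lipoprotein metabolic process had 4 of 12 higher and 1 lower. Apobec1, the editing enzyme of apolipoprotein B mRNA and a member of the last term, had 14.5 CPM in scramble and 33.7 with shAsns#2, a log2 ratio of 1.22 (1.02 to 1.42). At the other end stood the mitochondrial proton-transporting ATP synthase complex, with a median of -0.67 over 17 genes and 1 called lower. Its subunit gene Atp5e had -0.92 (-1.03 to -0.80). The term for glyceraldehyde-3-phosphate dehydrogenase activity had a median of -0.63 over 25 genes, but only 2 of these were protein-coding, and over the members with whole counts the median was 0.31. Glycolytic process held 46 genes, of which 22 were protein-coding, with medians of -0.53 over all and -0.50 over the protein-coding ones. Nuclear nucleosome had 6 of 14 genes called lower, and the 4 with the largest ratios were histone H4 genes with fractional counts. Over its members with whole counts the median was 0.07, against -0.35 over all.

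Single genes were ranked among those with at least 50 counts in either library. Genes without a symbol, and symbols of predicted genes, clones or pseudogenes, were left out of this set. Most of the genes with the largest ratios above 0 had few counts in scramble, with Lcn2 and its 331 counts as an exception. Mamdc2, a secreted MAM domain protein, had 3 counts in scramble against 204 with shAsns#2, beside 66 with shAsns#1, a log2 ratio of 5.54 (4.16 to 8.02). Gng2, a G protein gamma subunit (fractional counts), had 8, 406 and 423 counts and 5.23 (4.32 to 6.53). Flrt1, a leucine-rich repeat adhesion protein, had 2, 62 and 13 counts and 4.32 (2.68 to 7.67), and shAsns#2 exceeded shAsns#1 by 1.88 (1.04 to 2.91). In this set larger ratios came only from second Ensembl entries of the symbols Nnt and Ggnbp1, with 0 counts in scramble and 102 and 79 with shAsns#2, all fractional and thus at least 26.5-fold and 20.6-fold higher against the floor of 3 counts. Each symbol has another entry, with counts in both libraries.

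The largest ratios below 0 in this set included Bc1, a brain cytoplasmic noncoding RNA, which had 57 counts in scramble against 6 with shAsns#2, beside 120 with shAsns#1. Its log2 ratio was -3.49 (-5.11 to -2.39), and shAsns#1 lay on the other side of scramble. Fam177a (fractional counts) had 732, 106 and 52 counts and -3.14 (-3.45 to -2.85), and Medag, an adipogenesis gene with fractional counts, had -3.11 (-3.78 to -2.55). Crip1, a LIM domain protein, had 93.7, 21.7 and 38.6 CPM and -2.11 (-2.25 to -1.97).

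By size of the gain in CPM, abundant genes led. Of the 10 largest gains, 4 had fractional counts, and these were Gm42427, AC158975.2, Gm43305 and Pabpc1. With whole counts there were Nars, C3, Hspa9 (a mitochondrial chaperone, 1119 to 1544 CPM), Nfe2l1 (a transcription factor of proteasome genes, 304 to 576 CPM), Eif3c (752 to 1011 CPM) and Nrp2 (a semaphorin receptor, 553 to 803 CPM). Nfe2l1 had a log2 ratio of 0.92 (0.88 to 0.97), while 21 of 31 proteasome subunit genes had intervals below 0 (30.9% of all kept genes) and their median was -0.18. Of the 10 largest losses, 3 belonged to annotated pseudogenes with fractional counts (Gm28661, Gm10925 and Gm7336), and the others to genes of the mitochondrial genome, glycolysis and the cytoskeleton, among them mt-Cytb (4369 to 2633 CPM), mt-Nd1 (2460 to 1341 CPM) and Vim (3663 to 1948 CPM).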

How the data were processed

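RNA from 3 MBT2 cultures was sequenced, with 1 library per condition. The authors deposited an expected count per Ensembl gene, unscaled and partly fractional, with gene lengths and GO terms. The sources used here do not name the counter, the build or the gene models. Bowtie 0.12.2 appears in the submitters' notes without a stated role. The methods name a TruSeq kit. Gene names were matched to GENCODE M21, which named 13586 of the kept genes. Values were rounded, a minimum of 10 counts in either library was required, and all 3 libraries were scaled by TMM (edgeR 4.0.16, R 4.3.3). Log2 ratios used a prior count of 0.5. Intervals were exact conditional binomial (Clopper-Pearson) for ratios and exact Poisson for levels, at 95%, with a floor of 3 counts, and cover counting error only. A count was whole within 1e-09. With no replicates no p-value was computed. The procedure was checked on simulated data with counting error only, which cannot check for spread between cultures. Members, 46 gene lists, call rules and alternatives were chosen with earlier results of these data known. Named genes were Asns, genes the study names for these cells, the 12 largest ratios in each direction with at least 50 counts in 1 library, the 10 largest gains and losses in CPM, up to 6 members of each list and up to 4 of each GO term described. Of the 328 genes this gave, 107 overlap an exon of another gene. The ranking by ratio left out genes without a symbol and symbols of predicted genes, clones or pseudogenes. Members named with a ratio only from a list's full range (Igtp, Atf3) were added after their values were seen. Alternatives used DESeq2 1.42.0 size factors, total counts, other count filters, a prior count of 2, whole counts only, a 99.9% interval, protein-coding genes only and subtraction of the length trend, the last 2 added after seeing the data.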

Additional observations from a re-analysis of the deposited data

How the results depend on the processing

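No paired analysis was possible because each condition had 1 library. DESeq2 size factors, no count filter and a prior count of 2 changed no count of called genes by over 1.5 times and moved no median of a list or described GO term beyond the range set by the spread of its members. Genes called 2-fold higher and lower numbered 343 and 291 with at least 10 counts required in both libraries, 303 and 244 with at least 50 in either, and 386 and 232 among genes with whole counts. At the study's fold the same settings gave 141 and 61, 154 and 60, and 235 and 87, where fewer genes could be called. A stricter counting interval left 378 genes 2-fold higher, and 238 higher and 114 lower at the study's fold, while protein-coding genes alone gave 112 lower at that fold. Total counts moved the medians of asparagine, aspartate and glutamine metabolism to -0.04, of aminoacyl-tRNA synthetases to 0.37 and of ribosomal proteins to -0.29. Subtracting the length trend gave -0.23 for ribosomal proteins and -0.12 for the nuclear respiratory chain. With whole counts only, the median of MHC class I presentation was -0.09, of nuclear nucleosome 0.07 and of glycolytic process -0.35. The terms for glyceraldehyde-3-phosphate dehydrogenase activity (0.31) and for S-nitrosylase activity, S-trans-nitrosylation and killing by host of symbiont cells (0.74 each, main median -0.56) changed sign, and the cause was not tested. The spread between cultures cannot be measured with 1 library per condition, and genes near the floor of 3 counts carry intervals of several log2 units.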
